A study of Mus musculus with 9 samples.

Results

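The 9 genes described here are Il17a, Il17ra, Il17rc, Il17rd, Il17re, Il23a, Il23r, Rora and Il22ra1, taken by name as the Th17 and IL-17 receptor axis from the 49585 genes of each table. Interleukin-17A (Il17a) is the cytokine that gives Th17 cells their name, and gamma delta T cells of mouse skin also make it. Interleukin-23, whose p19 subunit is Il23a, acts through Il23r to maintain such cells, and the nuclear receptor RORα (Rora) helps to turn on their program. The receptor genes are mainly used by the cells that answer: IL-17A and IL-17F bind a pair of Il17ra and Il17rc on keratinocytes and fibroblasts, Il17re pairs with Il17ra to bind IL-17C, Il17rd is a receptor-like regulator also known as Sef, and Il22ra1 is the chain of the IL-22 receptor that confines its response to epithelium.

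RNA from untreated mouse skin was sequenced in 9 libraries, 3 per group. The groups were mice labelled IL-6 -/- KO with the strain given as C57BL/6, wild-type BALB/c mice and wild-type C57BL/6 mice. All came from Jackson Laboratory at 4 to 5 weeks of age and were acclimated for 2 weeks. At 6 weeks of age they were shaved (day 0), and they stayed untreated for 7 days and gave skin on day 8. The protocol lists 6 IL-6KO, 3 BALB/c and 3 C57 mice and ties no library to 1 mouse, so that a p-value reflects the scatter among libraries, part of which may be technical.

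Total exon reads per library were 3843953 to 4476346 in the IL-6 KO-labelled libraries, 6115739 to 6242332 in BALB/c and 6083876 to 6882193 in C57BL/6. Il6 had 6, 24 and 1 reads in the IL-6 KO-labelled libraries, against 0, 2 and 0 in BALB/c and 2, 1 and 0 in C57BL/6. Reads of Il6 were thus present in each library labelled as its knockout, and Il6 was too rare to test. The group is called by its label throughout. The gene counts do not show whether the Il6 reads lie in the deleted part. The tissue markers were those of skin: basal keratinocyte genes summed to 4747 to 8257 CPM (counts over the library size scaled by TMM) in the IL-6 KO-labelled libraries, 6260 to 7806 in BALB/c and 5892 to 8795 in C57BL/6. Hair matrix and shaft genes summed to 4504 to 16766 CPM in the IL-6 KO-labelled libraries, against 5.32 to 15.3 in BALB/c and 9.66 to 180 in C57BL/6, with 7 of 7 called higher against either strain. Skeletal muscle genes summed to 6757 to 7630 CPM in the IL-6 KO-labelled libraries, against 18847 to 41594 in BALB/c and 39551 to 71815 in C57BL/6. T cell genes summed to 9.78 to 26.1 CPM in the IL-6 KO-labelled libraries, against 23.9 to 30.4 in BALB/c and 28.4 to 33.6 in C57BL/6, and 1 of 7, Cd3e, was called lower against C57BL/6 and 0 of 7 against BALB/c by edgeR or DESeq2 (1 at an unadjusted p under 0.05). Of the markers of the cells that carry the receptors, 2 of 6 basal keratinocyte genes were called lower against C57BL/6 and 0 of 6 fibroblast genes in any comparison by edgeR or DESeq2 (2 at an unadjusted edgeR p under 0.05, in BALB/c against C57BL/6). Endothelium genes summed to 124 to 162 CPM in the IL-6 KO-labelled libraries, against 116 to 236 in BALB/c and 250.4 to 405 in C57BL/6, with 4 of 5 called lower against C57BL/6 and 1 of 5 against BALB/c. The part of these markers in the receptor values was not tested. Over all genes tested, edgeR called 35.2% in the IL-6 KO-labelled libraries against C57BL/6 and 37.3% against BALB/c. IL-6 KO-labelled library 2 had the lowest hair sum of the 3. It had the highest sum of every other marker list except skeletal muscle, T cell and suprabasal keratinocyte among them. In whole skin, fewer cells of a type and less RNA per cell cannot be told apart.

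**Figure D1:**
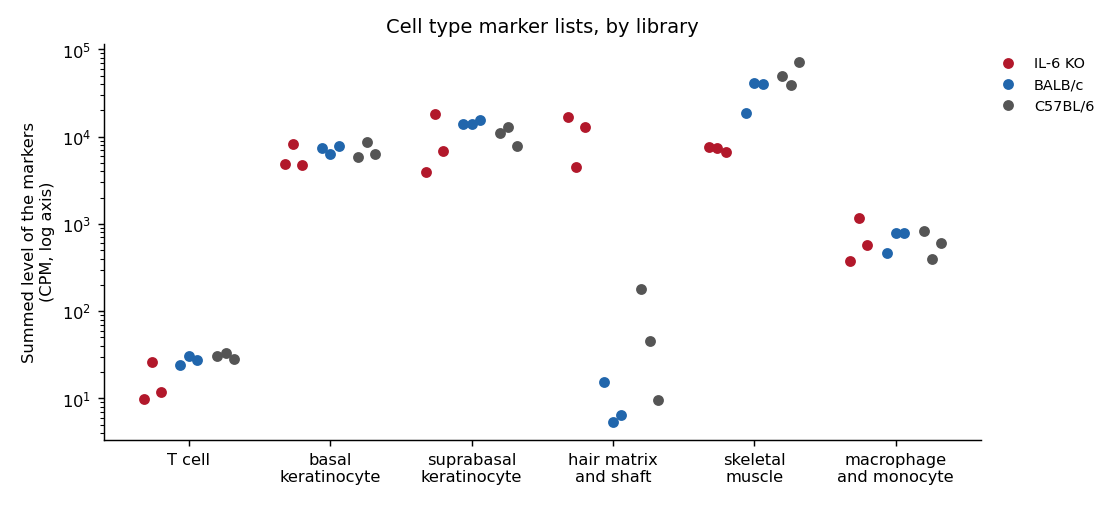
Summed level of the marker genes of 6 cell types (CPM, log axis) in each library; each point is 1 library, with the IL-6 KO-labelled libraries left of BALB/c and C57BL/6. Hair matrix genes sit at 4504 CPM or more in the IL-6 KO-labelled libraries and at 180 CPM or less elsewhere, and T cell genes sum to 33.6 CPM or less in every library.

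The upstream sequences of 3 members are shown because RORα binds the letters AGGTCA, and because the results turn on these members: Il17a and Il23r were at or near 0 reads, and Il17rd was the member called between the strains. Each line gives the 250 bases before the RefSeq start of transcription (build GRCm38.p6), 5′ to 3′ on the gene's strand, with AGGTCA or its reverse complement in capitals. The windows are chr1:20730655-20730904 on the plus strand for Il17a, chr6:67491856-67492105 on the minus strand for Il23r and chr14:27038751-27039000 on the plus strand for Il17rd.
Il17a: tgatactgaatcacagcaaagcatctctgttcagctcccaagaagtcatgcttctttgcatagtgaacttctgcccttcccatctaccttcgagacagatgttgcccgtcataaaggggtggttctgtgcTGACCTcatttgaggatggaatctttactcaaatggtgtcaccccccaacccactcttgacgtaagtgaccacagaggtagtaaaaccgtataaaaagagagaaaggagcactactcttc
Il23r: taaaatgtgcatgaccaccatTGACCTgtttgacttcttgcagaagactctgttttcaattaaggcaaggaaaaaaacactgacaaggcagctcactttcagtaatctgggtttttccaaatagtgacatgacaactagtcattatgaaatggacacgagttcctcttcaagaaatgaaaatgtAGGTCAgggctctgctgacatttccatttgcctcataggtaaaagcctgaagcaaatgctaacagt
Il17rd: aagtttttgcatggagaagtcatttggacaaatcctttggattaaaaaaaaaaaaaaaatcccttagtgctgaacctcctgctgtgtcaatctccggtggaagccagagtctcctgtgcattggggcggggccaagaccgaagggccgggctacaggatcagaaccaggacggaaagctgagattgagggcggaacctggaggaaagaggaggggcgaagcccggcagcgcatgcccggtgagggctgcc

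AGGTCA, searched on both strands, was found 1 time upstream of Il17a, with its first base at -120 from the start site, and 2 times upstream of Il23r, at -229 and -66. It was in none of the windows of Il17rc, Il17rd, Il17re, Rora and Il22ra1, and 14.0% of the 32851 windows of all genes hold it. The STAT letters TTCNNNGAA (7.02% of windows) and the E-box CACGTG (6.02%) were in none of the 7 windows. RefSeq windows for Il17ra and Il23a were not used here. A match of letters is a description, and no binding was measured.

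The ligands and the IL-23 pair were too rare to judge. Il17a (chr1:20730905-20734496) had 0 reads in each of the 9 libraries. That is 0 of 50742908 exon reads, which allows a level of up to 0.0591 CPM without TMM scaling (3 reads, counting error only), and within the IL-6 KO-labelled libraries alone up to 0.236. Il23a (chr10:128296140-128298084, minus strand) had 0, 4 and 0 reads in the IL-6 KO-labelled libraries, against 1, 0 and 0 in BALB/c, and 0, 1 and 1 in C57BL/6. Of these 7 reads, 4 came from IL-6 KO-labelled library 2. Il23r (chr6:67422932-67491855, minus strand) had 1, 0 and 1 exon reads in the IL-6 KO-labelled libraries, 0, 0 and 1 in BALB/c, and 0 in each C57BL/6 library, none of them across an exon junction. These 3 genes failed the filter on low counts, and a difference between groups was not detectable at this depth.

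The receptors and Rora passed the filter, which leaves 6 of 9 members tested. Compared per length, as CPM per kb of exon, Il17rc was highest in every group, at 20.9 ± 8.13 in the IL-6 KO-labelled libraries, 33.1 ± 1.99 in BALB/c and 34.7 ± 4.09 in C57BL/6 (mean ± SD, n = 3 each), and its libraries did not overlap with those of any other member. Rora followed with 7.72 ± 2.80 CPM per kb in the IL-6 KO-labelled libraries, 14.1 ± 1.92 in BALB/c and 9.88 ± 2.81 in C57BL/6. Il22ra1 was next, with 4.60 ± 2.34 CPM per kb in the IL-6 KO-labelled libraries, 7.32 ± 1.94 in BALB/c and 6.35 ± 2.76 in C57BL/6. These neighbours in the order overlapped in the IL-6 KO-labelled libraries and in C57BL/6 but not in BALB/c. Il17ra had 3.87 ± 0.45 CPM per kb in the IL-6 KO-labelled libraries, 3.43 ± 0.21 in BALB/c and 3.56 ± 0.21 in C57BL/6, and Il17re had 3.47 ± 0.38 in the IL-6 KO-labelled libraries, 3.67 ± 0.57 in BALB/c and 4.39 ± 0.86 in C57BL/6. These levels overlapped in every group. Il17rd was lowest, at 1.55 ± 0.42 CPM per kb in the IL-6 KO-labelled libraries, 0.870 ± 0.041 in BALB/c and 2.28 ± 0.37 in C57BL/6, apart from the other 5 in every group.

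**Figure D2:**
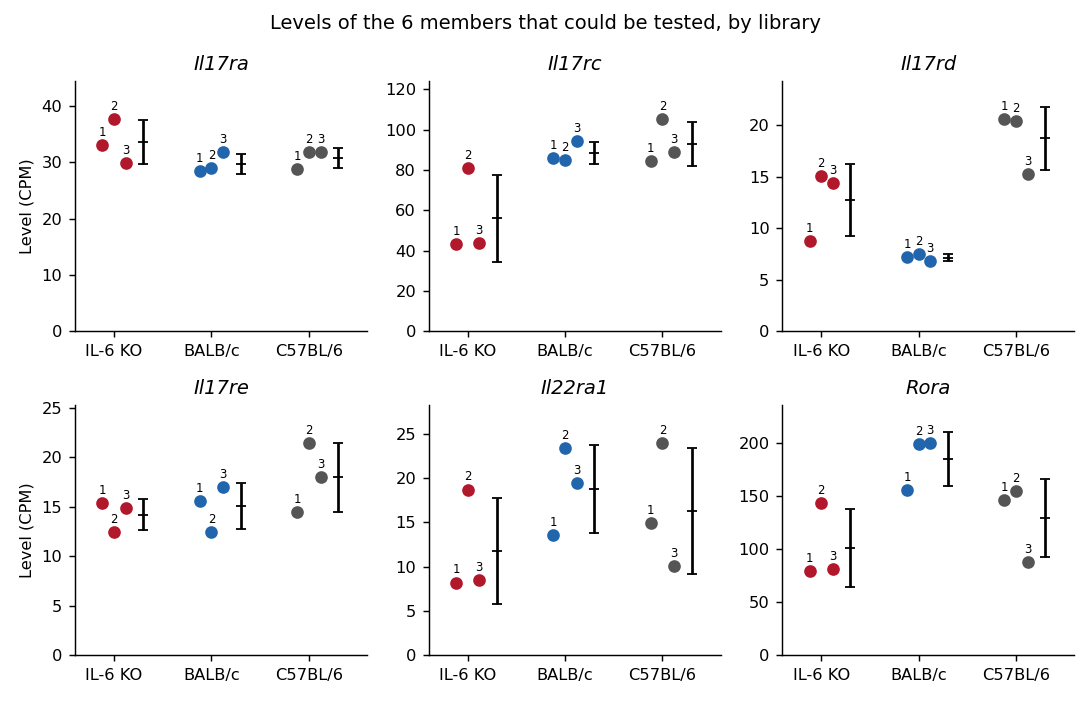
Level (CPM, linear axis from 0) of the 6 tested members in each library, numbered 1 to 3 within a group, with the mean and SD of each group to the right of its points. Il17rd separates all 3 groups, the IL-6 KO-labelled libraries and C57BL/6 by little, with BALB/c lowest at 6.81 to 7.48 CPM. In Il17rc, Il22ra1 and Rora, IL-6 KO-labelled library 2 lies above the other 2 of its group.

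Across all 14415 genes tested, edgeR's quasi-likelihood test called 35.2% at an adjusted p under 0.05 between the IL-6 KO-labelled libraries and C57BL/6 (19.2% higher, 16.0% lower). It called 3.41% between BALB/c and C57BL/6 (1.63% higher, 1.78% lower), and 37.3% between the IL-6 KO-labelled libraries and BALB/c (19.9% higher, 17.4% lower). Against these shares, 1 of the 6 tested members was called between the IL-6 KO-labelled libraries and C57BL/6, 1 between BALB/c and C57BL/6, and 2 between the IL-6 KO-labelled libraries and BALB/c. Their median log2 fold change was -0.41 in the IL-6 KO-labelled libraries against C57BL/6 (0.01 over all genes tested), -0.06 in BALB/c against C57BL/6 (-0.01 over all genes) and -0.37 in the IL-6 KO-labelled libraries against BALB/c (0.01 over all genes). The groups did not overlap for 2 members between the IL-6 KO-labelled libraries and C57BL/6 (47.5% of all genes), for 2 between BALB/c and C57BL/6 (30.2%) and for 3 between the IL-6 KO-labelled libraries and BALB/c (50.7%). Each comparison shares a group with the others, so the calls are not independent.

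Il17rd differed between the strains. It lies at chr14:27039001-27107286 on the plus strand and is known as an inhibitor of fibroblast growth factor signalling that also modulates IL-17A signals. Its level was 8.73, 15.1 and 14.4 CPM in the IL-6 KO-labelled libraries, 7.16, 7.48 and 6.81 CPM in BALB/c, and 20.6, 20.4 and 15.2 CPM in C57BL/6. All BALB/c libraries were below all others. No pair of groups overlapped, but the highest IL-6 KO-labelled library (15.1 CPM) was just below the lowest of C57BL/6 (15.2 CPM). In BALB/c, Il17rd was lower than in C57BL/6, with a log2 fold change of -1.39 ± 0.23 (SE; edgeR adjusted p = 0.0133), a 2.62-fold difference. In the IL-6 KO-labelled libraries it was higher than in BALB/c, by 0.84 ± 0.24 on the log2 scale (edgeR adjusted p = 0.0222), and the value against C57BL/6 was -0.55 ± 0.23 (edgeR adjusted p = 0.0878). Against C57BL/6 it was -0.69 and called without IL-6 KO-labelled library 2 (edgeR adjusted p = 0.0464), and -0.35 without library 1 (edgeR adjusted p = 0.237). The strain call was lost without BALB/c library 1, 2 or 3 (edgeR adjusted p = 0.0533, 0.0662 and 0.0745) or C57BL/6 library 1 (edgeR adjusted p = 0.0592). The call against BALB/c was lost without IL-6 KO-labelled library 3 (edgeR adjusted p = 0.0824) or BALB/c library 1, 2 or 3 (edgeR adjusted p = 0.0606, 0.0619 and 0.0737). Exon junctions were crossed by 4 of 132 Il17rd exon reads in BALB/c and 33 of 353 in C57BL/6. In the IL-6 KO-labelled libraries they were crossed by 16 of 175. The part of read mapping in the strain difference was not tested.

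Il17rc fell in the IL-6 KO-labelled libraries. It lies at chr6:113471427-113483140, 668 bases after Il17re on the same strand, and encodes the chain that pairs with Il17ra for IL-17A and IL-17F. Its level was 43.1, 81.0 and 43.7 CPM in the IL-6 KO-labelled libraries, 85.7, 84.8 and 94.4 CPM in BALB/c, and 84.4, 105 and 88.8 CPM in C57BL/6. IL-6 KO-labelled libraries 1 and 3 were far below the rest and library 2 just below them, so neither pair overlapped. The log2 fold change against C57BL/6 was -0.73 ± 0.23 (edgeR adjusted p = 0.0358), a 1.65-fold difference. Against BALB/c it was -0.65 ± 0.23 (edgeR adjusted p = 0.0505), which did not pass, and between BALB/c and C57BL/6 it was -0.07 ± 0.23 (edgeR adjusted p = 0.90). The value against BALB/c did pass with RLE scaling, no filter, a replicate block, unique exon reads or total gene reads with or without the filter (edgeR adjusted p = 0.0343 to 0.0489) and by DESeq2 (adjusted p = 0.0293). The call against C57BL/6 did not hold with libraries scaled by size alone (edgeR adjusted p = 0.115), with only these 2 groups modelled (edgeR adjusted p = 0.0723), or without IL-6 KO-labelled library 1 or 3, BALB/c library 2 or 3, or any C57BL/6 library (edgeR adjusted p = 0.0529 to 0.133). Without IL-6 KO-labelled library 2, the fold change was -1.10 against C57BL/6 (edgeR adjusted p = 0.000377) and -1.02 against BALB/c (edgeR adjusted p = 0.000491).

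Summed suprabasal keratinocyte markers were 3896, 18404 and 6915 CPM in the IL-6 KO-labelled libraries, against 13888, 13815 and 15593 CPM in BALB/c and 11069, 13041 and 7820 CPM in C57BL/6. IL-6 KO-labelled libraries 1 and 3 had the lowest sums, as they had the lowest Il17rc. Gene by gene, 2 of the 6 markers were called higher and 0 lower against C57BL/6 (median log2 fold change 0.58), and 1 higher and 1 lower against BALB/c (median -0.02), so the sums and the single markers do not point one way. The part of these markers in the Il17rc values was not tested. The gene most like Il17rc over the 9 libraries was Gdpd2 (Pearson r of log2(CPM + 0.5) = 0.996), followed by Sbsn, which encodes suprabasin of the upper epidermis (r = 0.989), and Ano8 (r = 0.986). In all, 372 of 13547 genes compared reached 0.9 with Il17rc, against 1 with Il17ra. These correlations are descriptions over 9 libraries that share depth and group. Creld1, which starts 156 bases after Il17rc on the same strand, was also called lower in the IL-6 KO-labelled libraries, at -0.89 against C57BL/6 and -0.77 against BALB/c on the log2 scale (edgeR adjusted p = 0.0112 and 0.0201). Il17re, the neighbour on the other side, was at 15.3, 12.4 and 14.9 CPM in the IL-6 KO-labelled libraries, 15.6, 12.5 and 17.0 CPM in BALB/c, and 14.5, 21.5 and 18.0 CPM in C57BL/6. Its groups overlapped in each comparison, and the largest fold change was -0.34 ± 0.20 (edgeR adjusted p = 0.213), in the IL-6 KO-labelled libraries against C57BL/6.

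Il17ra (chr6:120463247-120487559), the chain shared by several IL-17 receptors, was not called in any comparison. It was at 33.1, 37.7 and 29.9 CPM in the IL-6 KO-labelled libraries, 28.5, 28.9 and 31.8 CPM in BALB/c, and 28.7, 31.9 and 31.8 CPM in C57BL/6. The log2 fold change was 0.12 ± 0.13 in the IL-6 KO-labelled libraries against C57BL/6 (edgeR adjusted p = 0.488), -0.05 ± 0.13 in BALB/c against C57BL/6 (edgeR adjusted p = 0.873) and 0.17 ± 0.13 in the IL-6 KO-labelled libraries against BALB/c (edgeR adjusted p = 0.319). These were the smallest standard errors among the tested members.

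Il22ra1 (chr4:135728172-135752140), the epithelial chain of the IL-22 receptor, overlapped between the groups in each comparison. It was at 8.20, 18.7 and 8.49 CPM in the IL-6 KO-labelled libraries, 13.5, 23.4 and 19.5 CPM in BALB/c, and 14.9, 24.0 and 10.03 CPM in C57BL/6. No comparison was called (edgeR adjusted p = 0.401 between the IL-6 KO-labelled libraries and C57BL/6, 0.827 between BALB/c and C57BL/6, 0.224 between the IL-6 KO-labelled libraries and BALB/c), and the standard errors of 0.39 to 0.40 on the log2 scale were the largest among the tested members. Without IL-6 KO-labelled library 2, the value against BALB/c was -1.17 (edgeR adjusted p = 0.0355). Its closest genes by level over the 9 libraries were Mnt (r = 0.973), Spink5, an inhibitor of epidermal proteases (r = 0.969), and Socs6 (r = 0.956).

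Rora (chr9:68653786-69388246) was lower in the IL-6 KO-labelled libraries than in BALB/c. Its level was 79.1, 143 and 80.7 CPM in the IL-6 KO-labelled libraries, 155, 198 and 200 CPM in BALB/c, and 146, 154 and 87.1 CPM in C57BL/6. All BALB/c libraries were above all others, the lowest of them by little, while C57BL/6 library 3 lay with the low libraries labelled IL-6 KO. The log2 fold change between the IL-6 KO-labelled libraries and BALB/c was -0.87 ± 0.28 (edgeR adjusted p = 0.0365), a 1.82-fold difference. Against C57BL/6 it was -0.35 ± 0.28 (edgeR adjusted p = 0.349), and between BALB/c and C57BL/6 0.51 ± 0.28 (edgeR adjusted p = 0.351). The call was lost with libraries scaled by size alone (edgeR adjusted p = 0.0805), with only the 2 groups modelled (edgeR adjusted p = 0.0545), without IL-6 KO-labelled library 1 or 3 (edgeR adjusted p = 0.124 and 0.133), and without BALB/c library 2 or 3 (edgeR adjusted p = 0.0943 and 0.0965). Without IL-6 KO-labelled library 2, Rora was also called against C57BL/6, at -0.70 (edgeR adjusted p = 0.0437). The genes most like it were Sema3d (r = 0.987), Gpr141 (r = 0.981) and Plxdc2 (r = 0.979), and among the members Il22ra1 followed it at r = 0.910 over the 9 libraries.

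**Figure D3:**
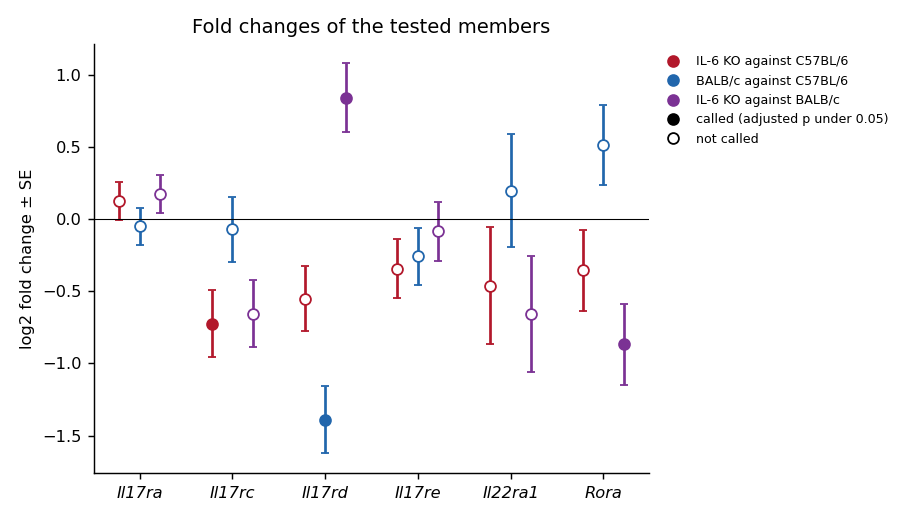
Log2 fold change ± SE of the 6 tested members in the 3 comparisons, filled where edgeR's adjusted p was under 0.05. The 4 filled points are Il17rc in the IL-6 KO-labelled libraries against C57BL/6, Il17rd in BALB/c against C57BL/6, and Il17rd and Rora in the IL-6 KO-labelled libraries against BALB/c.

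Reads in introns, deposited beside the exon reads, gave another view of Rora. The IL-6 KO-labelled libraries had 37, 72 and 47 Rora intron reads, BALB/c had 106, 164 and 145, and C57BL/6 had 231, 233 and 183. They made up 11.0, 9.29 and 11.0% of the reads in the gene in the IL-6 KO-labelled libraries, against 9.80, 12.1 and 10.5% in BALB/c, and 19.6, 18.4 and 28.1% in C57BL/6. All C57BL/6 libraries stood above all others in both measures, although over all genes the intron share was within 7.80 to 8.84% in the IL-6 KO-labelled libraries, 6.90 to 8.87% in BALB/c and 5.73 to 7.09% in C57BL/6. In a fit of intron reads alone, added after seeing the data, Rora was lower in the IL-6 KO-labelled libraries than in C57BL/6, at -1.84 ± 0.28 on the log2 scale (edgeR adjusted p = 0.000255), and than in BALB/c, at -1.09 ± 0.28 (edgeR adjusted p = 0.0104). Between BALB/c and C57BL/6 the intron value was -0.75 ± 0.26 (edgeR adjusted p = 0.108, and 0.0321 without the filter on low counts), opposite in sign to the exon value. The p-value without the filter rests on a spread shared between genes and does not measure the scatter of Rora itself. That fit called, of 10378 genes, 23.4% in the IL-6 KO-labelled libraries against C57BL/6, 6.47% in BALB/c against C57BL/6 and 23.4% in the IL-6 KO-labelled libraries against BALB/c. Il17rc intron reads were called lower in the IL-6 KO-labelled libraries, at -1.20 ± 0.32 against C57BL/6 and -0.98 ± 0.32 against BALB/c (edgeR adjusted p = 0.0136 and 0.0366), where its exon reads were called against C57BL/6 and missed the threshold against BALB/c. Whether the counting used strand is not given in the sources used here, and Gm15511 on the other strand overlaps Rora, where it was assigned 0 exon reads in every library. The IL-6 KO-labelled tables also differ from the others in their columns, and the BALB/c tables in the exon lengths of 17474 genes without annotated transcripts. These genes had 0 exon reads in every library, but 7577 to 9273 gene reads in the IL-6 KO-labelled libraries, 22185 to 32149 in BALB/c and 8167 to 10978 in C57BL/6. Of them, 0 lie within Rora, Il17rc or Il23r, and the part of either difference in the intron values was not tested.

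**Figure D4:**
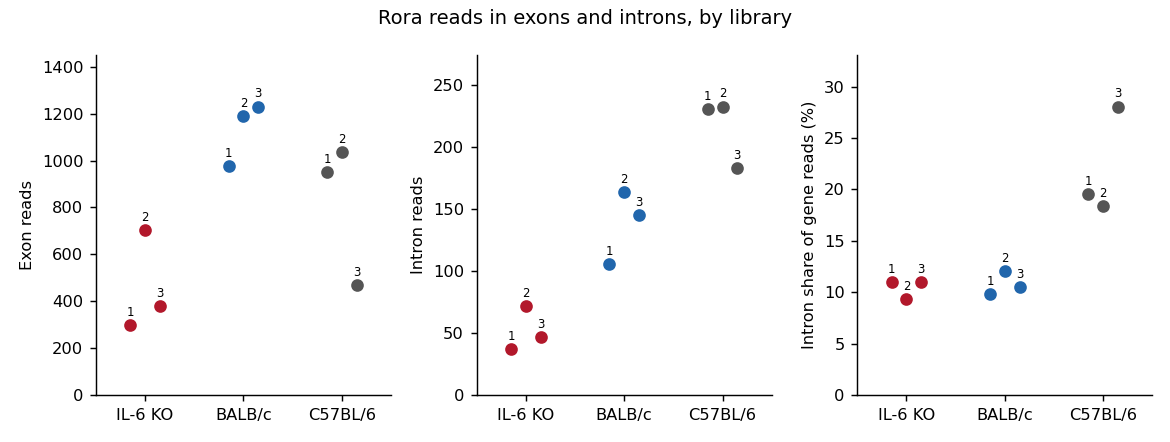
Rora exon reads, intron reads and the intron share of reads in the gene (percent) in each library, numbered within its group; read numbers are not scaled for depth. Exon reads overlap between BALB/c (976 to 1231) and C57BL/6 (469 to 1035), whereas intron reads (183 to 233) and the intron share (18.4 to 28.1%) in C57BL/6 lie above those of all other libraries.

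Il23r, with 3 exon reads in all, had 10, 5 and 14 intron reads in the IL-6 KO-labelled libraries, against 2, 3 and 1 in BALB/c and 0, 3 and 1 in C57BL/6. The IL-6 KO-labelled libraries were each above all others although they had the fewest reads in total. In the intron fit without a filter, the log2 fold change was 2.98 ± 0.73 against C57BL/6 and 2.58 ± 0.68 against BALB/c (edgeR adjusted p = 0.000806 and 0.00198), where 14.5% and 14.8% of 22461 genes were called, and 5.80% between BALB/c and C57BL/6. The SE and p-values of that fit rest on a spread shared between genes. They do not measure the scatter of Il23r itself among the 3 libraries of a group. Exon reads without a filter gave 2.93 ± 1.75 against C57BL/6 and 1.14 ± 1.54 against BALB/c (edgeR adjusted p = 0.284 and 0.628). Reads within an intron without junction reads do not show a spliced transcript, and Il23r remains too rare to judge.

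The other genes of the pathway were read from 7 lists of 86 genes reported here, of which 58 were tested. In the IL-6 KO-labelled libraries against C57BL/6, 19 were higher and 8 lower (46.6% called, where 35.2% of all genes were). In BALB/c against C57BL/6, 2 were higher and 0 lower (3.45% against 3.41%), and in the IL-6 KO-labelled libraries against BALB/c 17 were higher and 5 lower (37.9% against 37.3%). The shares in both comparisons with BALB/c are near those of all genes. Under every alternative tried, 17 of the 27 calls against C57BL/6 held, 1 of the 2 in BALB/c against C57BL/6 and 12 of the 22 against BALB/c. Among the genes named below, the calls of Il22ra2, Il20ra, Il1r1, Hif1a, Maf, Traf4, Traf2, Defb14 and Arntl against C57BL/6, of Nfkbiz in BALB/c against C57BL/6, and of Il17rb, Hif1a, Maf, Traf4, Traf3, Defb14, Il1b, Tgfb1 and Arntl against BALB/c were lost under at least 1 alternative.

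Response genes that IL-17 and IL-22 are known to raise in keratinocytes were mostly higher in the IL-6 KO-labelled libraries: 10 of 13 tested were higher and 0 lower against C57BL/6 (median log2 fold change 2.40), and 8 higher and 1 lower against BALB/c (median 2.52). In these comparisons 76.9% and 69.2% of this list were called, where 35.2% and 37.3% of all genes were. S100a7a was at 168, 41.5 and 101 CPM in the IL-6 KO-labelled libraries, 1.27, 0.499 and 1.14 CPM in BALB/c, and 1.54, 2.39 and 0.743 CPM in C57BL/6. Its log2 fold change was 5.99 ± 0.59 against C57BL/6 and 6.69 ± 0.63 against BALB/c (edgeR adjusted p = 0.000429 and 0.000247). Krt16, Krt17 and Krt6a, keratins of stressed epidermis and of the hair follicle, rose by 4.65 ± 0.59, 1.94 ± 0.25 and 2.40 ± 0.32 against C57BL/6 (edgeR adjusted p = 0.000695, 0.000733 and 0.000888). Steap4, a metalloreductase, and Socs3, a feedback inhibitor of STAT3, were at -0.24 ± 0.42 and -0.45 ± 0.35 and were not called (edgeR adjusted p = 0.681 and 0.338). Defb14, a beta-defensin, was at 0.529, 3.26 and 1.49 CPM in the IL-6 KO-labelled libraries, 7.80, 4.49 and 5.84 CPM in BALB/c, and 0.307, 0.447 and 0.371 CPM in C57BL/6. It was the 1 gene of this list that edgeR called in BALB/c against C57BL/6, by 3.93 ± 0.58 (edgeR adjusted p = 0.00757), and was lower in the IL-6 KO-labelled libraries than in BALB/c, at -1.72 ± 0.49 (edgeR adjusted p = 0.0213). In BALB/c against C57BL/6, DESeq2 called 3 of the 13, and 4 had an unadjusted edgeR p under 0.05. The hair matrix genes given above rose in the same libraries, with sums of 16766, 4504 and 13049 CPM in IL-6 KO-labelled libraries 1 to 3. S100a7a had the same order over these libraries, and Defb14 the reverse. The part of the hair genes in the values of this list, keratins included, was not tested. Cxcl1, Cxcl3, Cxcl5, Ccl20, Defb3, Defb4, Csf3, Csf2 and Camp were too rare to test, and Il36a and Il36g were not analysed here.

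Among the Th17 transcription factors and homing genes reported here, 3 of 7 tested were higher and 0 lower in the IL-6 KO-labelled libraries against either strain. That is 42.9% of the list, where 35.2% of all genes were called against C57BL/6 and 37.3% against BALB/c. Runx1, a transcription factor of T cell and hair follicle development, rose by 2.09 ± 0.15 against C57BL/6 and 2.04 ± 0.15 against BALB/c (edgeR adjusted p = 0.000279 and 8.27e-05). Hif1a rose by 0.79 ± 0.18 against C57BL/6 and 0.67 ± 0.18 against BALB/c (edgeR adjusted p = 0.00939 and 0.0182). Maf rose by 0.51 ± 0.13 against C57BL/6 and 0.54 ± 0.13 against BALB/c (edgeR adjusted p = 0.0148 and 0.0108). Stat3 and Ahr were not called (-0.50 ± 0.22 and -0.44 ± 0.30 against C57BL/6; edgeR adjusted p = 0.109 and 0.280), and Ikzf3 and Ccr6 were too rare to test.

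Of the partner and related receptors, 2 of 11 tested were higher and 5 lower in the IL-6 KO-labelled libraries against C57BL/6, 0 were called in BALB/c against C57BL/6 by edgeR or DESeq2 (3 at an unadjusted edgeR p under 0.05), and 1 was higher and 2 lower in the IL-6 KO-labelled libraries against BALB/c. By edgeR, in the same order, 63.6%, 0% and 27.3% of this list were called, where 35.2%, 3.41% and 37.3% of all genes were. Il12rb2, a chain of the IL-12 receptor, was at 0.793, 2.44 and 0.849 CPM in the IL-6 KO-labelled libraries, 2.55, 5.16 and 6.81 CPM in BALB/c, and 15.7, 14.2 and 4.83 CPM in C57BL/6. Its log2 fold change was -3.04 ± 0.61 against C57BL/6 (edgeR adjusted p = 0.00510). Il22ra2, the soluble IL-22 binding protein, fell by 2.82 ± 0.74 (edgeR adjusted p = 0.0167), and Il6st, the signalling chain gp130 of the IL-6 family, fell by 0.83 ± 0.19 (edgeR adjusted p = 0.00910). Tgfbr1, a TGF-beta receptor, rose by 0.64 ± 0.16 (edgeR adjusted p = 0.0146). Il20ra was at 4.23, 17.7 and 2.12 CPM in the IL-6 KO-labelled libraries, 42.8, 44.4 and 48.3 CPM in BALB/c, and 31.5, 32.7 and 34.2 CPM in C57BL/6, and fell by 2.46 ± 0.53 against BALB/c (edgeR adjusted p = 0.00685). Il17rb, a receptor for IL-25, fell by 1.77 ± 0.54 and Il1r1, the IL-1 receptor, rose by 0.84 ± 0.13 against BALB/c (edgeR adjusted p = 0.0284 and 0.00169). Il12rb1, the partner of Il23r, had 5 reads in all in the IL-6 KO-labelled libraries, 8 in BALB/c and 14 in C57BL/6 and was too rare to test, as was Il21r.

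Among 18 adaptors and signalling genes, all tested, 2 were higher and 1 lower in the IL-6 KO-labelled libraries against C57BL/6, 1 higher in BALB/c against C57BL/6, and 2 higher in the IL-6 KO-labelled libraries against BALB/c. In the same order, 16.7%, 5.56% and 11.1% of this list were called, where 35.2%, 3.41% and 37.3% of all genes were. Tab3 rose by 1.11 ± 0.23 and Traf4, which competes with Traf6 for the adaptor Act1, by 1.08 ± 0.29, while Traf2 fell by 0.42 ± 0.13 against C57BL/6 (edgeR adjusted p = 0.00600, 0.0172 and 0.0280). Traf4 and Traf3 rose against BALB/c by 1.02 ± 0.29 and 0.67 ± 0.19 (edgeR adjusted p = 0.0211 and 0.0231). Nfkbiz, the NF-κB cofactor of IL-17 responses, was at 25.7, 42.1 and 22.9 CPM in the IL-6 KO-labelled libraries, 46.6, 41.1 and 43.8 CPM in BALB/c, and 22.8, 22.7 and 22.5 CPM in C57BL/6. BALB/c exceeded C57BL/6 by 0.95 ± 0.21 (edgeR adjusted p = 0.0434). Tab2 and Usp25, the most abundant genes not called, were at 0.04 ± 0.12 and -0.43 ± 0.17 in the IL-6 KO-labelled libraries against C57BL/6 (edgeR adjusted p = 0.807 and 0.0695).

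The cytokines around IL-23 and IL-22 were mostly too rare: Il12a, Il12b, Il21, Il22, Il19, Il20, Il24 and Il6 could not be tested, and Il21, Il22 and Il20 had 0 reads in every library. Il1b was at 3.70, 33.0 and 8.92 CPM in the IL-6 KO-labelled libraries, 0.318, 2.00 and 4.87 CPM in BALB/c, and 0.307, 0.746 and 0 CPM in C57BL/6. It rose by 5.29 ± 1.17 against C57BL/6 and by 2.67 ± 0.91 against BALB/c (edgeR adjusted p = 0.00755 and 0.0444), with IL-6 KO-labelled library 2 the highest. Tgfb1 rose against BALB/c by 0.66 ± 0.20 (edgeR adjusted p = 0.0274), with 0.51 ± 0.20 against C57BL/6 (edgeR adjusted p = 0.0702). Of the other IL-17 ligands, Il17d alone could be tested and was not called (-0.45 ± 0.51 against C57BL/6; edgeR adjusted p = 0.521), and Il17b, Il17c, Il17f and Il25 were too rare.

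Of 6 tested ROR and REV-ERB receptors and clock partners, 1 was higher and 2 lower in the IL-6 KO-labelled libraries against either strain. That is 50.0% of the list, where 35.2% of all genes were called against C57BL/6 and 37.3% against BALB/c. The REV-ERB repressors Nr1d1 and Nr1d2, which bind the same AGGTCA letters as RORα, fell in the IL-6 KO-labelled libraries, with log2 fold changes of -1.68 ± 0.33 and -0.93 ± 0.22 against C57BL/6 (edgeR adjusted p = 0.00445 and 0.0105) and of -1.54 ± 0.33 and -1.54 ± 0.22 against BALB/c (edgeR adjusted p = 0.00642 and 0.00110). Arntl, the clock activator they repress, was at 19.3, 27.5 and 17.4 CPM in the IL-6 KO-labelled libraries, 10.2, 10.8 and 11.8 CPM in BALB/c, and 11.4, 17.4 and 10.8 CPM in C57BL/6. It rose by 0.69 ± 0.24 against C57BL/6 and 0.97 ± 0.24 against BALB/c (edgeR adjusted p = 0.0496 and 0.0134). Clock and Cry1 were not called by edgeR in any comparison, and Rorb was too rare to test. Against BALB/c, DESeq2 called 4 of the 6 where edgeR called 3, and 4 had an unadjusted edgeR p under 0.05. The hour of sampling is not given in the labels.

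**Figure D5:**
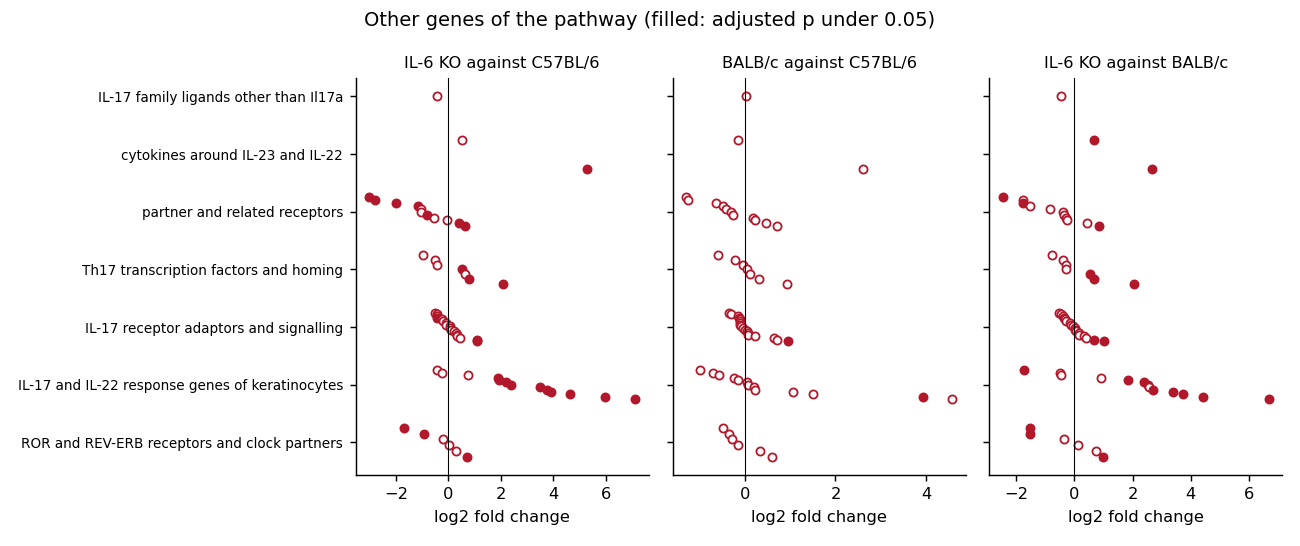
Log2 fold changes of the 58 tested genes of the 7 pathway lists in the 3 comparisons, 1 point per gene, filled where edgeR's adjusted p was under 0.05. The keratinocyte response list holds 10 filled points to the right of 0 in the IL-6 KO-labelled libraries against C57BL/6, whereas 2 points in all are filled in BALB/c against C57BL/6.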

How the data were processed

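RNA-seq libraries of mouse skin were analysed as the gene tables the authors deposited. Reads were mapped to GRCm38, per the submitters' processing notes; the aligner, its settings and strandedness are not stated by any source used here. Counts of total exon reads, raw per the file headers, were analysed; where a file holds 3 stacked tables, the first was used. The tables labelled IL-6 KO have 23 columns and lack the gene biotypes that the others, with 24, hold, and their expression values are defined differently, so that column was not used. Gene lengths and transcript numbers matched in all 9 tables. Exon lengths did too, except that the BALB/c tables alone give one to the 17474 genes without annotated transcripts, which have 0 exon reads throughout.

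All 9 libraries were fitted in 1 model with edgeR 4.0.16 (R 4.3.3): filterByExpr (minimum count 10, minimum total 15) left 14415 genes, with TMM factors of 0.887 to 1.10, 6 residual degrees of freedom and a common dispersion of 0.0524. Quasi-likelihood p-values were adjusted by Benjamini-Hochberg over all tested genes, with a threshold of 0.05. The SE is the fold change divided by the square root of F. Levels are CPM on TMM-scaled library sizes. Depth limits the precision of rare genes, and zero-count limits cover counting error only.

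The members and lists were chosen with earlier results of these data known; 1 gene of the lists is not reported here and is left out of their counts and of the plots, but not of the fits. Named genes are all members, per list and comparison up to 4 called genes by p-value and the 2 most abundant uncalled ones, and the 3 genes of highest correlation per tested member. Creld1 was named as a neighbour and Cd3e as a called marker after their values were seen. Alternatives were RLE and library-size scaling, no filter, a replicate block, only the groups compared, DESeq2 1.42.0, a robust fit, unique exon reads, total gene reads and leaving out each library. Total gene reads without a filter and intron reads were added after seeing the data. Upstream sequences are from RefSeq (GRCm38.p6), with entries for 7 of 9 members.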

Additional observations from a re-analysis of the deposited data

Results flagged for a closer look

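Intron reads of Il23r lie outside the exon counts on which the comparisons rest, and they were above the level of the wild-type strains. They summed to 29 over the IL-6 KO-labelled libraries, against 6 in BALB/c and 4 in C57BL/6. Scaled to the reads in genes of each library, as CPM without TMM scaling, this was 2.10 ± 0.96 in the IL-6 KO-labelled libraries, 0.299 ± 0.151 in BALB/c and 0.194 ± 0.216 in C57BL/6 (mean ± SD, n = 3 each). With 2 exon reads they make up all 31 reads in the gene in the IL-6 KO-labelled libraries, and neither exon read crossed a junction. The tables labelled IL-6 KO differ from the others in their columns, and the part of that difference was not tested.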

How the results depend on the processing

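Of 342 member fold changes recomputed under other settings, 304 kept their direction and side of the threshold, 23 lost a call and 11 gained one. The other 4 changed sign without a call on either side: Il17ra in BALB/c against C57BL/6 was 0.016 with library size alone. With 1 library left out, Il17rc there was -0.12 to 0.027 (highest without C57BL/6 library 2), Il22ra1 there was -0.050 to 0.59 (lowest without C57BL/6 library 3), and Il17re in the IL-6 KO-labelled libraries against BALB/c was -0.23 to 0.0036 (highest without IL-6 KO-labelled library 2). Il17ra and Il17re stayed uncalled throughout. Members called for the IL-6 KO-labelled libraries against C57BL/6 numbered 1, but 0 with library size alone or only the 2 groups, and 2 with total gene reads and no filter. Against BALB/c they numbered 2, but 1, 1 and 4 under the same settings. Both counts with total gene reads and no filter include Il23r (edgeR adjusted p = 0.00850 against C57BL/6 and 0.0217 against BALB/c), which is not among the 6 tested members and is too rare to judge. For BALB/c against C57BL/6, genes called numbered 491, but 1033 with DESeq2 and 762 with total gene reads and no filter. Pathway genes called there numbered 2, but 1 with library size alone, with total gene reads and with total gene reads and no filter, and 4 with DESeq2 or only the 2 groups. Leaving out 1 library gave 3238 to 6806 genes, 0 to 3 members and 20 to 36 pathway genes for the IL-6 KO-labelled libraries against C57BL/6. It gave 167 to 977, 0 to 1 and 1 to 5 for BALB/c against C57BL/6, and 3310 to 7044, 0 to 4 and 14 to 36 for the IL-6 KO-labelled libraries against BALB/c. The highest member counts came without IL-6 KO-labelled library 2. Library size alone moved the median of all genes to 0.15 for the IL-6 KO-labelled libraries against C57BL/6, and the share of calls that were higher to 67.8%, against 54.6%; for BALB/c against C57BL/6 it was 58.8% against 47.9%. The causes were not tested.

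Replicate numbers did not pair the libraries: same-numbered ones correlated at -0.21 to 0.06 in their deviations. With a replicate block, 255 genes and 1 pathway gene were called for BALB/c against C57BL/6.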

Other observations

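Reads across exon junctions were 65.3% of exon reads in Il17rc, 43.0% in Il17re and 30.7% in Il22ra1, but 13.2% in Il17ra, 8.03% in Il17rd and 5.74% in Rora. The last 3 have the longest annotated exons, 8662, 8220 and 13071 bases in all, against 2671, 4095 and 2569 in the first 3. Il17rd, an inhibitor of growth factor signalling, was most like Ccl19, a chemokine of lymph node stroma (r = 0.968), Pglyrp4, a bactericidal protein of epithelium (r = 0.967), and Snai1, a transcription factor of mesenchyme (r = 0.958), in level over the 9 libraries. Il17ra was most like Vps37b (r = 0.914), Lxn (r = 0.896) and Ccl22 (r = 0.874), and Il17re most like Gpank1 (r = 0.906), Dnaaf2 (r = 0.892) and Zfp12 (r = 0.891).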
